A study of Mus musculus with 79 samples.

Results

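The cytosolic ribosomal protein genes encode the proteins of the 40S and 60S subunits of the cytoplasmic ribosome. They were chosen by symbol, as names made of Rps or Rpl with a number or of Rplp0, Rplp1 or Rplp2, with close paralogs included and the S6 kinases left out. The rule itself used the symbol only, but it was set with earlier results of these data known. Each gene was represented by its transcript with the highest mean signal. The rule found 84 genes among 19526 gene symbols in the E14 table, the same 84 among 19492 in the clone table and 84 among 25335 in the SCC1-mAID table. They comprise 30 small subunit genes, 43 large subunit genes, the 3 genes of the acidic stalk and 8 paralogs with a like name. All 84 passed the filter on low reads in E14 and in the clones and 83 passed it in SCC1-mAID, where the muscle paralog Rpl3l did not.

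The series holds 79 RNA libraries from mouse embryonic stem (ES) cells kept in serum with leukaemia inhibitory factor and given 1 uM retinoic acid (RA), which makes these cells differentiate. Total RNA came from E14 cells of wildtype genotype: the 0 h group has 2 libraries, the 24 h group 3, and the groups at 2, 4, 6, 48 and 72 h have 4; the last time is 72 h in the sample titles and 74 h in the sample characteristics. Nuclear RNA came from SCC1-mAID cells (E14;Rosa26::Tir1;Scc1-mAID-eGFP), in which auxin makes the plant receptor Tir1 destroy the tagged cohesin subunit SCC1. Their 4 groups of 3 libraries were untreated, RA for 4 h, 500 uM auxin for 6 h, and auxin for 6 h with RA for the last 4 h. Nuclear RNA also came from 3 clones, each a single clone of E14: E3 and H12, which lack a transient enhancer in the Hoxb locus (E14;HoxTransEdel), and G4, a wild-type clone. Every clone was sampled in 2 libraries after 0, 2, 4, 6, 24, 48 and 74 h of RA. Counting the chosen transcript of each gene, an E14 library held between 2352131 and 21082293 reads, an SCC1-mAID library between 3126363 and 7499042, and a clone library between 4754309 and 10450047. The ribosomal protein genes took 1.07% to 1.58% of those reads in E14 libraries and between 1.15% and 1.504% in SCC1-mAID libraries. In clone libraries they took 0.367% to 0.788%. Depth differed with time in E14: the 2 libraries of 0 h held 16236541 and 21082293 reads. Those of 24, 48 and 72 h held between 2352131 and 4123207. Comparisons of these times with 0 h are thus also comparisons of depth, and the part of depth was not tested. Apart from the E14 series, for which biological replicates are stated, the labels do not say whether libraries came from separate cultures, so p-values measure the spread between libraries, which may be technical.

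A ribosome joins a small subunit, which decodes the mRNA, to a large subunit, which forms the peptide bond, and each protein is needed in about equal number. Vertebrate ribosomal protein mRNAs belong to the class with a 5′ terminal oligopyrimidine (TOP) tract: their transcripts start at a C within a run of pyrimidines, and growth signals acting through the kinase mTORC1 set how well they are translated. Many of these genes hold small nucleolar RNAs in their introns, and most have given rise to processed pseudogenes, copies that share much of the mRNA's sequence. Pluripotent cells in culture divide fast and make many ribosomes, and ribosome synthesis is known to slow as they differentiate.

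The promoters of 63 of the 84 genes were found in the RefSeq promoter table (GRCm38.p6). Of these, 49 had the same start base as the authors' annotation. Promoters are shown for 3 genes that fell during RA, for the abundant genes Rpl4 and Rplp0, and for Rpl37, which differed between the clones. Neither Rpl4 nor Rplp0 was called at 72 h in E14, but Rplp0 was called lower at 74 h in the clones. Each line gives 60 bases before the annotated start and 20 bases from it, 5′ to 3′ on the coding strand, with capitals for a pyrimidine run of at least 8 bases that lies within 10 bases of the start. Rps12 lies at chr10:23787190-23787269 (minus strand), Rpl34 at chr3:130730318-130730397 (minus), Rpl9 at chr5:65391412-65391491 (minus), Rpl4 at chr9:64173327-64173406 (plus), Rplp0 at chr5:115559407-115559486 (plus) and Rpl37 at chr15:5116553-5116632 (plus).
Rps12: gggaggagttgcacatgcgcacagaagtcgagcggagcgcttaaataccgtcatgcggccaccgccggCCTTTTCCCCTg
Rpl34: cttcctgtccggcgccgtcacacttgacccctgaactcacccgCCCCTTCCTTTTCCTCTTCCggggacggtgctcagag
Rpl9: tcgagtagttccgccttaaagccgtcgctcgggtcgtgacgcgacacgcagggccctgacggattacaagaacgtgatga
Rpl4: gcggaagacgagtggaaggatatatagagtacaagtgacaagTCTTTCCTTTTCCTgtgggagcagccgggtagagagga
Rplp0: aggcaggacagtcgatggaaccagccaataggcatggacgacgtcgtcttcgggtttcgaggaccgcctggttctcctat
Rpl37: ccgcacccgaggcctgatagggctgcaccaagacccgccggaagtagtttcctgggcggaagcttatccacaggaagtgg

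A pyrimidine run of this kind was present in 29 of the 63 promoters (46.0%) and in 14.02% of all 32851 promoters of the table. The letters CCGGAAG, searched on both strands over the whole 300 bases of each promoter, were found in 38.1% of the members and in 8.86% of all promoters; in Rpl34 this match, on the opposite strand, overlaps the pyrimidine run. The letters AAGATGGC, searched in the same way, were found in 7.94% of the members and in 2.75% of all promoters. The run was present in genes that fell, such as Rps12 and Rpl34, and in genes that did not, such as Rpl4. At 72 h of RA in E14, the median log2 fold change was -0.47 over the 29 genes with a run and -0.33 over the 34 without one. At 74 h in the clones the order was the other way, with -0.52 and -0.57. These differences were not tested.

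At 0 h the members differed widely in level per exon length, although their proteins are used in about equal number. In the authors' FPKM, fragments scaled to exon length and library size, the mean of the 2 untreated E14 libraries ran from 496 for Rpl8 to 16.7 for Rpl29, with Rpl3l alone under 10, at 0.181. The median over the 84 genes was 61.0, and 32 genes were above 100. Among the highest were Rpl8, Rpl4 at 405, Rps9 at 303 and Rps26 at 294, and the ranges of the 2 libraries did not overlap between these genes. Further down the order neighbours often overlapped: this held for 60 of the 83 pairs of neighbours. The 10 highest genes held 37.2% of the summed FPKM.

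Many members can be read only in part by short reads. Of all windows of 42 bases, the read length, in each gene's mRNA, a median of 47.4% over the 84 genes occurs in no other gene of the GENCODE M21 annotation, from 6.60% for Rpl9 to 100% for Rpl3l. For 13 genes the share was under 20%, among them Rps12 at 12.2% and Rpl3 at 13.7%, and for 45 genes it was under 50%. How the authors treated reads that match several places is not given in the sources used here, so levels of these members are uncertain where a copy could take part of the reads.

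No member passed the test in the first hours of RA. At 2, 4 and 6 h, 0 of 84 genes were called in E14 by edgeR's quasi-likelihood test at an adjusted p under 0.05, where 0.497% of all 15084 genes tested were called at 2 h (0.404% higher, 0.0928% lower), 2.44% at 4 h (1.53% higher, 0.908% lower) and 3.96% at 6 h (2.16% higher, 1.8% lower). Members with an unadjusted p under 0.05 numbered 1 at 2 h, 0 at 4 h and 1 at 6 h, and DESeq2's Wald test also called 0 at each time. The median log2 fold changes of the members were 0.12, 0.08 and 0.08. The 3 comparisons share the 2 libraries of 0 h.

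By the number of genes called, the fall began by 24 h and reached most of the genes by 48 h. The members' summed share of E14 reads was 1.21% to 1.27% at 0 h and 1.26% to 1.32% at 24 h. It was 1.07% to 1.19% at 48 h and 1.07% to 1.26% at 72 h, where the libraries overlapped those of 0 h. At 24 h 25 members were lower and 0 higher, with a median log2 fold change of -0.12, where 27.4% of all genes were called and 13.3% were called lower. Without the library numbered 4 at 0 h, 8 members were called at 24 h, without that numbered 3 there were 14, and without the library numbered 3 at 24 h there were 13. At 48 h 50 members were lower and 2 higher, Rps20 and Rpl3l, with a median of -0.49, where 55.7% of all genes were called and 26.9% lower. At 72 h 48 were lower and 2 higher, Rps20 and Rpl32, with a median of -0.47, where 59.7% of all genes were called, 29.3% lower and 30.4% higher; the median over all genes was 0.00. Of the 48, 25 had fallen at least 2-fold, and the share of all genes that fell this far was not counted. From 24 h to 72 h, a comparison without the 0 h libraries, 41 members fell and 0 rose, with a median of -0.36. In this fit 37.2% of all genes were called and 18.5% lower. With the authors' size factors 18 members fell, and 26 without the first library at 24 h. The shares of all genes are of the main fit and do not apply to those 2 counts.

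**Figure D1:**
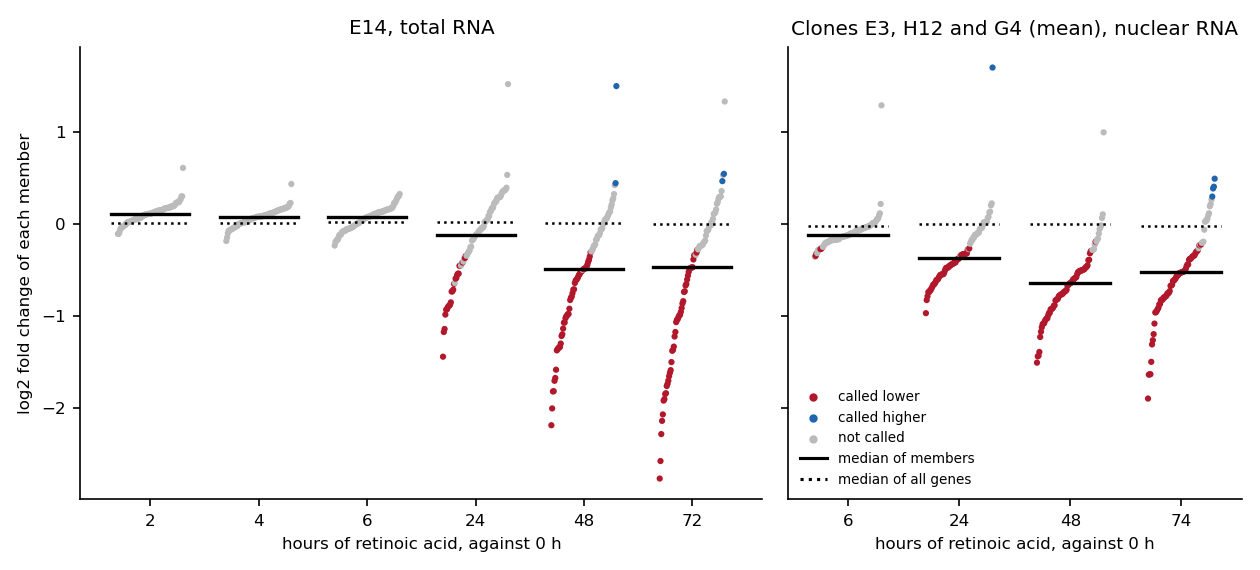
Log2 fold change of each of the 84 genes against 0 h, ordered by value within each time of retinoic acid, for E14 total RNA and for the mean of the 3 clones' nuclear RNA; red and blue points were called lower and higher, and lines give the medians of members and of all genes. The E14 points lie between -0.23 and 0.61 at 2 to 6 h, those of the clones at 6 h lie between -0.35 and 1.29, and the members' median lies at -0.49 at 48 h in E14 and at -0.64 at 48 h in the clones.

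Scaling affects how far the members fall in E14. With the authors' own size factors the median over all genes at 72 h was 0.27 in place of 0.00, the members' median was -0.19, and 12 members were higher and 33 lower. The members were thus below the median of all genes under either scaling, while the split between higher and lower calls moved. The 29.3% of all genes called lower and 30.4% called higher belong to the main scaling. They are no background for the counts with the authors' size factors. At 72 h the 4 libraries had member medians of -0.28, -0.55, -0.59 and -0.39 relative to the mean of 0 h, with 58 to 75 of 83 genes lower in each library, Rpl3l left out. In a bulk sample, fewer cells of a type and less RNA per cell cannot be told apart.

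The cells also changed in makeup over the same time. The summed level of 8 pluripotency markers, in CPM (edgeR's reads scaled to the TMM library size), was 3310 to 3366 in the E14 libraries at 0 h and 573 to 1782 at 72 h. That of 8 endoderm markers rose from 163 to 170 CPM up to 844 to 1709 CPM, that of 6 fibroblast markers from 101.1 to 103.6 up to 555 to 832 CPM with a spread of 66.2 to 891 CPM at 4 h, and that of 7 neural markers was 187 to 201 CPM at 0 h and 159 to 339 CPM at 72 h. At 0 h in the clones, pluripotency markers summed to 1950 to 2550 CPM, and at 74 h to 78.8 to 288 CPM. No marker of these lists was at 0 in all libraries of an E14 group. The part of these changes in the members' fall was not tested.

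Among small subunit genes, 14 of 30 were lower and 1 higher at 72 h in E14, with a median log2 fold change of -0.23. Rps12 (chr10:23785183-23787209, 7 exons), a protein of the small subunit's beak, fell most of all 84 genes. Its level was 120 and 124 CPM at 0 h and 12.5, 27.5, 13.3 and 18.6 CPM at 72 h. Every library at 72 h lay far below both untreated ones, and the log2 fold change was -2.76 ± 0.23 (SE; edgeR, adjusted p = 5.52e-10). Its range was 107 to 127 CPM at 2 h, 91.3 to 118 CPM at 6 h and 33.0 to 61.2 CPM at 24 h. Rps28 (chr17:33823037-33824498), which sits near the mRNA exit, had 24.3 and 25.7 CPM at 0 h and 3.61, 7.92, 3.33 and 5.78 CPM at 72 h, a change of -2.28 ± 0.26.

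Rps27a (chr11:29545842-29548040), made as a fusion with ubiquitin, fell by 1.58 on the log2 scale. Rps6 (chr4:86854099-86857367), the substrate of the S6 kinases, fell by 1.17. Other small subunit genes did not pass the test: log2 fold changes were -0.24 ± 0.12 for Rps2, -0.06 ± 0.14 for Rps3, 0.30 ± 0.16 for Rps14 and -0.20 for Rps19. Rps3 lies at the mRNA entry, and Rps14 and Rps19 are known from human marrow failure.

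Rps20 (chr4:3834473-3835600) was the small subunit gene called higher at 72 h. It had 214 and 231 CPM at 0 h and 360, 274, 302 and 368 CPM at 72 h, so all 4 late libraries lay above both untreated ones. The log2 fold change was 0.55 ± 0.16 (edgeR, adjusted p = 0.00446). Without the library numbered 3 at 0 h, Rps20 had an adjusted p of 0.059.

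Among large subunit genes, 31 of 43 were lower and 1 higher at 72 h, with a median of -0.74. The difference between the subunits was not tested. Rpl3 (chr15:80077781-80083406, 10 exons), which reaches toward the peptidyl transferase centre, had 237 and 229 CPM at 0 h and 24.0, 70.3, 26.3 and 35.5 CPM at 72 h. The second library at 72 h was the highest of the 4, and all 4 lay below the lowest library of 24 h, at 77.8 CPM. The log2 fold change was -2.57 ± 0.33 (edgeR, adjusted p = 1.36e-06).

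Rpl23a (chr11:78180936-78183584), at the peptide exit, had 50.8 and 56.6 CPM at 0 h and 14.8, 14.2, 9.98 and 9.5 CPM at 72 h, a change of -2.14 ± 0.18. Rpl34 (chr3:130726827-130730337) had 36.6 and 43.1 CPM at 0 h and 7.88, 13.3, 6.35 and 10.7 CPM at 72 h, a change of -2.07 ± 0.17. Rpl9 (chr5:65388364-65391431) had 54.6 and 59.2 CPM at 0 h and 11.8, 25.6, 9.07 and 13.6 CPM at 72 h, a change of -1.92 ± 0.26. In each of these genes the groups were well apart, and in Rpl3, Rpl34 and Rpl9 the second library at 72 h was the highest.

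Rpl5 and Rpl11 encode the proteins that bind 5S rRNA and, when ribosome assembly fails, the p53 regulator Mdm2. Rpl5 (chr5:107900528-107909005) had 92.2 and 96.4 CPM at 0 h and 44.6 to 49.7 CPM at 72 h, and it fell by 1.01 on the log2 scale. Rpl11 (chr4:136049948-136053371) had 48.1 and 49.3 CPM at 0 h and 11.97 to 18.4 CPM at 72 h, and it fell by 1.65. Rpl10a, at -1.90, Rpl30, at -1.76, and Rpl38, at -0.48 and known from the skeletal patterning mutant Tail-short, were also called lower.

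The large subunit genes with the highest FPKM at 0 h, Rpl8, Rpl4 and Rpl32, were not called lower, while Rpl10a, Rpl12 and Rpl18, also above 100 FPKM, were. Rpl4 (chr9:64173387-64178562), which lines the exit tunnel, had 1031 and 1024 CPM at 0 h and 1261, 1054, 1253 and 1290 CPM at 72 h. Its log2 fold change of 0.24 ± 0.13 did not pass the test (edgeR, adjusted p = 0.118). Rpl8 (chr15:76904071-76906318), of the peptidyl transferase centre, had a change of 0.30 ± 0.15 (adjusted p = 0.0933). Rpl32 (chr6:115805514-115808743) had 243 and 251 CPM at 0 h and 378, 277, 336 and 377 CPM at 72 h, a rise of 0.47 ± 0.17 (adjusted p = 0.0164). The adjusted p of Rpl32 was 0.101 without the library numbered 3 at 0 h and 0.0728 without the one numbered 4.

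None of the 3 stalk genes was called at 72 h in E14. The stalk, which recruits the translation factors, is built of Rplp0 and copies of Rplp1 and Rplp2, and their log2 fold changes were 0.13 ± 0.14, 0.12 ± 0.17 and -0.18 ± 0.14. Rplp0 (chr5:115559467-115563729) had 331 and 318 CPM at 0 h and 419, 323, 334 and 344 CPM at 72 h, so the groups overlapped. Whether the stalk differs from other members was not tested.

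**Figure D2:**
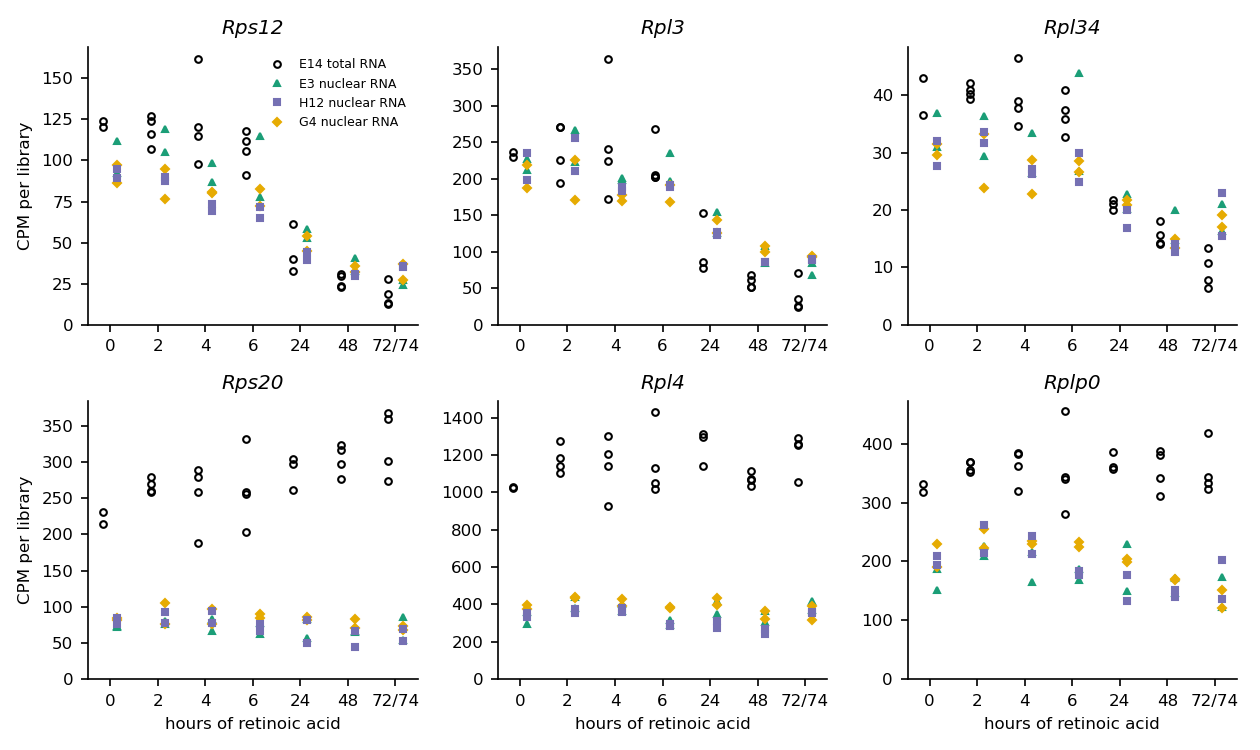
Level of 6 genes in each library, in CPM, by hours of retinoic acid, for E14 total RNA (circles) and nuclear RNA of clones E3, H12 and G4; the axes start at 0 and each point is 1 library. Rps12, Rpl3 and Rpl34 lie below their 0 h levels from 24 h on in both kinds of RNA. The clones' median of Rpl34 is 14.4 CPM at 48 h and 18.1 CPM at 74 h. The 4 E14 libraries of Rps20 at 72 h lie above both at 0 h, and those of Rplp0 overlap.

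The clones' nuclear RNA gave a separate view, since reads there were counted over the whole gene, introns included, so small nucleolar RNA genes inside introns add to them. Over the mean of the 3 clones, 5 members were lower and 0 higher at 6 h, with a median log2 fold change of -0.12, where 20.3% of all 15923 genes were called, 10% lower and 10.3% higher. They were Rpl35, at -0.34 ± 0.11, Rpl24, Rps7, Rpl10a and Rps12, at -0.25 ± 0.09. The members' count was thus below the background, and it was 0 without the second H12 library at 6 h and 1 to 3 without any 1 of 8 of the other 11 libraries. At 24 h 53 were lower and 1 higher, the low-level Rpl3l, with a median of -0.36, where 55.5% of all genes were called and 27.2% lower. At 48 h 70 were lower and 0 higher, with a median of -0.64, where 69.8% were called, 34.8% lower and 35% higher.

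At 74 h 65 members were lower and 4 higher in the clones, with a median of -0.52, where 73.7% of all genes were called, 37.2% lower and 36.5% higher. By role, 22 of 30 small subunit genes, 36 of 43 large subunit genes, 2 of 3 stalk genes and 5 of 8 paralogs were lower. These comparisons share the 6 libraries of 0 h. The libraries' own member medians at 74 h ran from -0.47 to -0.59, and at 48 h they were -0.94 and -0.82 in H12 against -0.42 and -0.69 in E3 and -0.48 and -0.47 in G4. In both H12 libraries at 48 h, 83 of 83 members were below their mean at 0 h.

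In the clones Rps12 had 86.5, 93.3 and 112 CPM as lowest, median and highest of the 6 libraries at 0 h and 24.1, 31.1 and 37.1 CPM at 74 h. The groups were far apart, with a log2 fold change of -1.63 ± 0.10 (edgeR, adjusted p = 6.28e-16). Rpl23a had 40.9, 43.8 and 49.5 CPM at 0 h and 12.5, 13.9 and 16.9 CPM at 74 h, also -1.63. Rpl3 went from 187, 215 and 235 CPM to 68.3, 89.1 and 94.1 CPM, a change of -1.31 ± 0.09. Rpl30 (chr15:34440508-34443225), a large subunit protein known in yeast to bind its own transcript, went from a median of 55.2 CPM to one of 20.3 CPM, a change of -1.49 ± 0.10.

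The 4 genes called higher at 74 h in nuclear RNA were Rps2, Rps14, Rpl8 and Rps3. Rpl8 had 211, 256 and 289 CPM at 0 h and 269, 344 and 375 CPM at 74 h, a change of 0.39 ± 0.10 (edgeR, adjusted p = 0.00136). Rps14 had 102, 118 and 139 CPM at 0 h and 141, 154 and 191 CPM at 74 h, with no overlap, a change of 0.41 ± 0.13 (adjusted p = 0.0073). Rps2, at 0.50 ± 0.21, and Rps3, at 0.30 ± 0.13, overlapped between the times. Without the second library of E3 at 0 h their adjusted p was 0.113 and 0.16, and both also missed the threshold without the second G4 library at 0 h, the first G4 library at 74 h, the second H12 library at 0 h or the second at 74 h, as did Rps2 without the first E3 library at 74 h.

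Set side by side, the late changes in total RNA of E14 and in nuclear RNA of the clones had the same sign of call for most members called. Called lower in both were 46 of the 84 genes, 2 were lower in E14 alone (Rpl15 and Rpl7a), 19 in the clones alone, 4 were higher in the clones alone, 2 were higher in E14 alone, and 11 were called in neither. Of all genes, 29.3% were called lower at 72 h in E14 and 37.2% at 74 h in the clones. The share of all genes called lower in both was not counted, so this overlap has no background. The 2 stalk genes Rplp0 and Rplp2 were among the 19, at -0.35 ± 0.11 and -0.91 ± 0.10 in the clones. Rplp2 had 74.9 to 99.5 CPM at 0 h and 41.5 to 48.3 CPM at 74 h there, without overlap, against no call in E14. The difference between the 2 sets was not tested, since they differ in RNA fraction, counting and cells. The kept transcript also differed between the sets for Rpl19, Rpl22, Rpl30, Rpl34, Rpl35a, Rps15, Rps24 and Rps27. For Rpl22 and Rps27 it was a non-coding RefSeq transcript in E14 and a coding one in the clones.

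Across the 84 genes the 2 log2 fold changes had a Pearson r of 0.66 and a Spearman rho of 0.71. These are across genes, which are no independent replicates, and the points of a set share their libraries. Of the genes called lower, 25 were down at least 2-fold at 72 h in E14 and 9 at 74 h in the clones. The shares of all genes down this far were not counted.

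**Figure D3:**
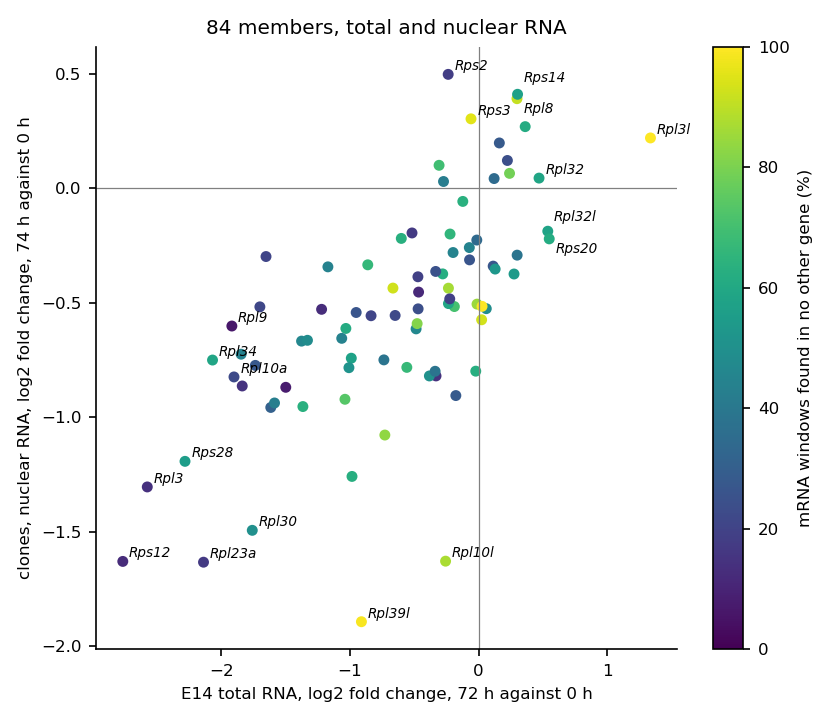
Log2 fold change of each of the 84 genes at 72 h in E14 total RNA (x axis) and at 74 h in the clones' nuclear RNA (y axis), each against its own 0 h; the colour gives the percent of the mRNA's 42-base windows that occur in no other gene. Most points lie below 0 on both axes, Rps12, Rpl3 and Rpl23a lie far down in both, and the dark points, with few such windows, lie mostly to the left.

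Members that share more of their mRNA with other genes had lower medians in E14. The 13 genes with under 20% unique windows had a median log2 fold change of -1.22 at 72 h, and 10 of them were lower. The 32 genes from 20% to 50% had -0.57, the 32 from 50% to 90% had -0.27, and the 7 above 90% had 0.02, with 2 lower. In the clones the same bands had -0.60, -0.54, -0.51 and -0.44. Spearman's rho between the share of unique windows and the change was 0.36 in E14 and 0.13 in the clones, over 84 genes. The windows are those of the spliced mRNA, while the clones' reads were counted over introns too. The share therefore describes the clones less well, and the 2 sets are not compared on like terms. Of the 39 genes with at least 50% unique windows, 18 were lower and 2 higher in E14 and 27 lower and 3 higher in the clones. The part of pseudogene copies in the changes was not tested.

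The ratio of the total RNA level to the nuclear level, from E14 and clone CPM at 2 h, gave a like order. It is a ratio between different cells and counting rules, so it serves to order genes and not as a measure of export. The 28 genes with the lowest ratio, with a median of 1.21, had a median log2 fold change of -0.91 at 72 h in E14, the middle 28 had -0.50, and the highest 28, with a median ratio of 2.42, had -0.10. In the clones these were -0.64, -0.59 and -0.33. Rps12 (1.24), Rpl3 (1.07) and Rps28 (1.05) were low in this order, and Rps20 (3.15), Rpl4 (2.91) and Rpl8 (2.88) were high. The ratio and the change share neither time nor test, but they share a set's mapping and counting.

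Small nucleolar RNA genes lay inside 29 of the 84 genes, 55 in all. These 29 had a median log2 fold change of -0.52 in E14 and -0.52 in the clones, against -0.38 and -0.53 for the 55 genes without one. Among them were Rps12, with Snora33 and Snord100, and Rpl23a, with Snord42a and Snord42b, which fell, and Rps20 and Rpl32, which rose in E14.

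Of the 8 paralogs, 3 were lower and 0 higher at 72 h in E14, near the 29.3% of all genes called lower, and several had another call than their parent genes. Rpl39l (chr16:10170228-10174911), known best from testis, had a change of -0.91 ± 0.24 in E14 and of -1.89 ± 0.20 in the clones, both called, while Rpl39, of the exit tunnel, had -0.01 in E14 and fell by 0.51 in the clones. Rpl10l (chr12:66283379-66284401), a single-exon copy of Rpl10 needed in male meiosis, had -0.26 ± 0.29 in E14 without a call and -1.63 ± 0.22 with a call in the clones, while Rpl10 was called at -1.5 and -0.87. Rps27l, known as a p53 target, fell by 0.73 and 1.08 and Rps27, with another transcript in each set, by 1.33 and 0.66. Rps4l, a single-exon copy of Rps4x, fell by 0.48 and 0.59, while Rps4x had 0.22 and 0.12 without a call.

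Rpl22l1 was not called, at -0.07 in E14 and -0.26 in the clones. Rpl22, with another transcript in each set, was not called in E14, at 0.02, and fell by 0.58 in the clones. Rpl7l1 had -0.23 without a call in E14 and fell by 0.44 in the clones, and Rpl7 was called in neither, at 0.16 and 0.20. Rpl3l, the muscle form of Rpl3, stayed under 2.5 CPM in every E14 library, and its high fold changes at 24 h in the clones and 48 h in E14 rest on few reads. Differences between a paralog and its parent were not tested.

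Of the genes of the ribosome that the name rule leaves out, Fau, which is made as a fusion with a ubiquitin-like protein, was lower at 72 h in E14, with a log2 fold change of -1.12, and so was Rpsa, at -0.30. Rack1, at 0.07, and Rpl36al, at -0.31, were not called. In the clones Fau and Rpl36al were lower. For the lists that follow, 29.3% of all genes were called lower and 30.4% higher at 72 h in E14, and 37.2% lower and 36.5% higher at 74 h in the clones. Of 36 ribosome biogenesis genes, which make and assemble the subunits, 34 were lower and 0 higher at 72 h in E14, with a median of -0.93, and 32 were lower and 1 higher in the clones, with -0.83. Of 18 translation factors with a TOP mRNA, 8 were lower and 3 higher in E14, with a median of -0.26, and 11 lower and 4 higher in the clones, with -0.37.

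Proteins of the mitochondrial ribosome gave a comparison with another translation machine. Of 78 genes, 38 were lower and 3 higher at 72 h in E14, with a median of -0.34, and 49 lower and 8 higher in the clones, with -0.40. Of 69 oxidative phosphorylation genes tested in E14, 22 were lower and 0 higher, with a median of -0.22, a share of lower calls near the 29.3% of all genes, and of 70 in the clones 41 were lower and 8 higher, with -0.35. The cytosolic ribosomal protein genes, at -0.47 and -0.52, were lower than both and less low than the biogenesis genes; these medians are described and not tested.

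Few members were called after auxin for 6 h, with or without RA. With RA for 4 h and cohesin present, 0 of 83 members were called, with a median log2 fold change of 0.07, where 2.57% of all 14031 genes were called (1.85% higher, 0.72% lower); at an unadjusted p under 0.05 there were 6, and DESeq2 called 0. Auxin alone raised 2, Rpl3 and Rps12, and lowered 0, with a median of 0.12, where 0.235% of all genes were called (0.0998% higher, 0.135% lower). These 2 were among 14 genes called higher of all those tested, and 27 members had an unadjusted p under 0.05 (edgeR). With auxin, RA for 4 h lowered the same 2 and raised 0, with a median of 0.01, where 2.64% were called (1.82% higher, 0.812% lower). At an unadjusted p under 0.05 (edgeR) there were 26 members. RNA levels cannot check that the SCC1 protein was lost. For the difference between the RA responses with and without auxin, 0 members and 0% of all genes were called, with 25 members at an unadjusted p under 0.05 and 2 called by DESeq2.

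Rpl3 had 121, 128 and 129 CPM in untreated nuclei, 168, 193 and 150 with RA, 256, 202 and 339 with auxin, and 137, 165 and 131 with auxin and RA. Every auxin library was above every library of the other groups, and the log2 fold change was 1.07 ± 0.17 against untreated (edgeR, adjusted p = 0.0155) and -0.88 ± 0.17 for RA on top of auxin (adjusted p = 0.00624). Rps12 had 61.6, 65.4 and 63.8 CPM untreated, 87.1, 83.7 and 80.4 with RA, 103, 99.8 and 182 with auxin, and 72.0, 79.9 and 59.8 with auxin and RA. Its changes were 1.01 ± 0.19 (adjusted p = 0.0382) and -0.86 ± 0.19 (adjusted p = 0.0199).

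The third libraries of both auxin groups, numbered 3 in the sample titles and 4 in the sample descriptions and the deposited columns, stood apart, in opposite ways. The third auxin library had the highest Rps12 and Rpl3 and the lowest Rpl4, at 628 CPM, against 828 and 785 CPM in the others. The third library with auxin and RA had the highest Rpl4, at 1144 CPM against 897 and 797, and the highest Rplp0, at 722 CPM against 478 and 329. Without these 2 libraries, an alternative chosen after seeing the data, 2 members were higher with auxin, while 0 members were called for RA on top of auxin: Rpl3 had -0.60 (adjusted p = 0.0911) and Rps12 -0.42 (adjusted p = 0.232). With the authors' size factors, which move the median of all genes by up to -0.33 in the difference of the RA responses, no member was called in any of these comparisons. The calls of Rpl3 and Rps12 with auxin were also lost without any 1 of the 3 untreated libraries.

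Between the clones, few members differed. Over all 7 times, 11 members were lower and 2 higher in the mean of E3 and H12 than in G4, with a median log2 difference of -0.03, where 30.7% of all genes were called, 16.9% lower and 13.8% higher. Between the 2 deletion clones, 19 were higher and 3 lower in E3 than in H12, with a median of 0.08, where 40.9% of all genes were called, 20.2% higher and 20.7% lower. The share of members higher in E3 was thus near the background. Without the second H12 library at 6 h 12 members were called, without the first E3 library at 0 h or at 74 h 13, and without the first E3 library at 6 h 14. With a single wild-type clone, the deletion and differences between clones cannot be told apart.

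Rpl37 (chr15:5116613-5119140), a zinc-binding protein of the large subunit, was lower in both deletion clones, with a log2 difference of -0.67 ± 0.06 (edgeR, adjusted p = 4.79e-11). Its lowest, median and highest levels over the 14 libraries of a clone were 22.8, 37.7 and 52.3 CPM in E3, 18.2, 35.8 and 44.9 CPM in H12, and 36.5, 58.4 and 79.9 CPM in G4. At 0 h it had 44.8 and 43.4 CPM in E3, 41.9 and 44.9 CPM in H12 and 70.1 and 68.9 CPM in G4, and at each of the 7 times every library of E3 and H12 lay below both of G4. Rps27a had -0.32 ± 0.05, called with each of the 42 libraries left out in turn. Rpl32l had -0.29 ± 0.11, and its call was lost in 21 of those 42 fits, with an adjusted p (edgeR) of up to 0.124.

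The 2 members higher in the deletion clones, Rpl39l and Rpl10l, had their highest levels in H12. Rpl39l had a median of 18.7 CPM over the libraries of H12, 5.79 CPM in E3 and 7.06 CPM in G4, and Rpl10l had 16.3, 6.70 and 5.33 CPM. At 0 h the H12 libraries had 22.8 and 25.1 CPM of Rpl39l, against 7.06 to 7.72 CPM in E3 and G4. The log2 difference of E3 from H12 was -1.42 ± 0.12 for Rpl39l (edgeR, adjusted p = 1.5e-11) and -1.30 ± 0.13 for Rpl10l (adjusted p = 6.9e-10). Rpl3l was also lower in E3, at -0.95 ± 0.33, and the highest differences the other way were 0.33 for Rps13, 0.31 for Rpl27 and 0.30 for Rpl22l1. The calls of Rpl3l, a gene of few reads, and of Rpl22l1 were each lost in 3 of the 28 fits that left out 1 library, with an adjusted p (edgeR) of up to 0.0816 and 0.0819; for Rpl3l these were the first E3 library at 0 h and the second H12 libraries at 0 and 2 h, and for Rpl22l1 the first E3 libraries at 0 and 48 h and the second H12 library at 6 h. At 74 h endoderm markers summed to 7513 to 7952 CPM in H12 and to 817 to 1190 CPM in E3 and G4, and at 0 h to 271 to 285 CPM in H12 and 317 to 448 CPM in E3 and G4, and their part in the differences between clones was not tested.

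The response to 74 h of RA differed between deletion clones and G4 for 1 member, Rps4l, where 6.95% of all genes were called. Rps4l (chr6:148354656-148355596) had 67.1 and 64.8 CPM at 0 h and 35.6 and 22.5 CPM at 74 h in G4. It had 59.8 and 48.6 CPM at 0 h and 38.5 and 54.2 CPM at 74 h in E3, and 72.3 and 60.1 CPM at 0 h and 57.9 and 43.8 CPM at 74 h in H12. The fall was larger in G4, with a log2 difference of 0.87 ± 0.27 (edgeR, adjusted p = 0.0415). Without the second G4 library at 74 h the difference was 0.59 and not called, and the call of Rps4l was also lost without either G4 library at 0 h, the second library of E3 or of H12 at 0 h, the second of E3 at 74 h or the first of H12 at 74 h.

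**Figure D4:**
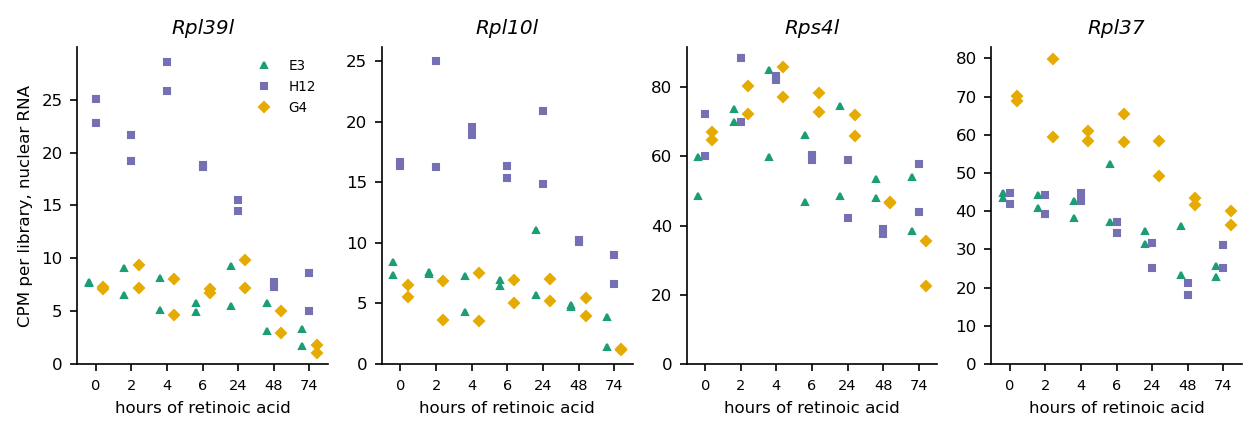
Level of Rpl39l, Rpl10l, Rps4l and Rpl37 in each nuclear RNA library of clones E3, H12 and G4, in CPM, by hours of retinoic acid; each point is 1 library and the axes start at 0. Rpl39l and Rpl10l are high in H12 from 0 h on, Rps4l is lowest in G4 at 74 h, and Rpl37 is higher in G4 than in either deletion clone at each time.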

How the data were processed

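The submitters' processing notes name SAMtools, STAR, DESeq2 and Bowtie2 and the builds mm10 and dm6; Drosophila SG4 cells had been added for calibration, rRNA was depleted, and directional libraries gave paired reads of 42 bases, per the labels' protocols. Versions, the counting program and the origin of the size factors are not given in the sources used here. The deposited signal is a read count per RefSeq transcript that the authors divided by 1 size factor per library, and at least 99.997% of values in each library were within 0.1 of a whole read. The deposited FPKM of E14 was used for levels between genes only. The deposited fold changes were not used.

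For each symbol the transcript with the highest mean signal was kept. Recovered reads were fitted per set with edgeR 4.0.16 (R 4.3.3, limma 3.58.1, statmod 1.5.0): TMM, filterByExpr, robust quasi-likelihood tests, Benjamini-Hochberg adjustment over all genes tested, calls at an adjusted p under 0.05. The standard error (SE) was taken as the size of the log2 change over the root of F. The fit was tested on simulated data. DESeq2 1.42.0 and limma on log2 of signal plus 1 were alternatives, with other scalings, filters and transcripts and each library left out. Members and gene lists were chosen with earlier results of these data known. Named genes were the called members with the highest and lowest changes and a list of members by role. Some genes within these rules are not reported here. Coordinates are the authors', counted from 1.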

Additional observations from a re-analysis of the deposited data

Results flagged for a closer look

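In 6 of 115 groups of 4 E14 libraries, over 22 members and the members' summed share of reads at 5 times, 1 library lay far from the other 3; chance flags about 1 in 20 such groups. The third library at 6 h had 268 CPM of Rpl3 against 202 to 205 CPM in the others, 114 CPM of Rpl5 against 83.6 to 85.7 CPM, and 50.1 CPM of Rpl11 against 39.9 to 41.4 CPM. The second library at 4 h had 125 CPM of Rplp1 against 172 to 179 CPM. The second library at 72 h had 1054 CPM of Rpl4 against 1253 to 1290 CPM, and the first at 48 h had 35.5 CPM of Rps27a against 25.2 to 26.1 CPM. Without the second library at 4 h, the third at 6 h and the second at 72 h, an alternative chosen after seeing the data, 9 members were higher and 47 lower at 72 h, and 0 were called at 4 and 6 h. The shares of all genes called in this alternative are not given here.

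By a test of the difference itself, the response of Rps4l to 74 h of RA differed between the deletion clones and G4. The log2 difference was 0.87, and 6.95% of all genes were called in this comparison. With each library left out in turn the difference ranged from 0.59 to 1.24. The call depended on single libraries, as described above.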

How the results depend on the processing

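In E14 and the clones the median of the members' late change stayed below 0 under every alternative run. Members called from 24 h to 72 h numbered 41, against 18 with the authors' size factors and 22 with limma. In SCC1-mAID the few calls depended on the fit. For RA alone, 4 were called when only the compared groups were fitted. For auxin, 10 were called without a filter, 11 by DESeq2, 4 with the replicate block, and 0 with the authors' factors, limma or only the compared groups; the median turned from 0.12 to -0.05 with limma. For RA on top of auxin, 4 were called without a filter and by DESeq2, and 0 with the authors' factors, limma, only the compared groups or without the third libraries of both auxin groups. For the difference of the RA responses, 2 were called without a filter and by DESeq2. In the clones at 6 h, 3 were called without a filter and with the longest transcript per gene, and for the 74 h difference 0 with only the compared groups. The shares of all genes called under these alternatives, and with each library left out, are not given here. These counts thus have no background. Causes were not tested.

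With each library left out in turn, calls ranged in E14 from 0 to 0 at 2, 4 and 6 h, 8 to 26 at 24 h (8 and 14 without the library of 0 h numbered 4 or 3, 13 without the one of 24 h numbered 3), 40 to 52 at 48 h, 39 to 51 at 72 h, and 26 to 46 from 24 h to 72 h (26 without the first at 24 h). In SCC1-mAID they ranged from 0 to 0 for RA, 0 to 5 for auxin (0 without any untreated library, 1 and 5 without the third or the second auxin library), 1 to 13 for RA on top of auxin (13 without its second library, 8 without the first auxin library, 1 without the third auxin library or the first or the third with RA) and 0 to 0 for the difference. In the clones they ranged from 0 to 6 at 6 h (0 to 3 without 9 of the 12 libraries, 0 without the second of H12 at 6 h), 47 to 55 at 24 h, 65 to 73 at 48 h, 63 to 68 at 74 h, 11 to 16 for deletion against G4, 12 to 27 for E3 against H12 (12 without the second H12 library at 6 h, 13 or 14 without the first E3 library at 0, 74 or 6 h), and 0 to 1 for the 74 h difference.

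By the median correlation of their deviations, same-numbered libraries went together more than other pairs did. For SCC1-mAID the median was 0.17 over same-numbered pairs and -0.083 over other pairs. The clones had 0.11 and -0.11, and E14 had 0.092 and -0.022. Not every same-numbered pair was above a correlation of 0.1: 11 of 18 were for SCC1-mAID, 218 of 420 for the clones and 31 of 67 for E14. The main fits did not take the numbers as pairs, so they leave this shared deviation out. With the replicate block, 50 members were called at 72 h in E14 and 72 at 74 h in the clones. The shares of all genes called in these block fits are not given here. Fitting only the compared groups could not be run as an alternative where a comparison uses all libraries. Genes with few reads, such as Rpl3l, limit the depth at which a change could be seen.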
